A study of Rattus norvegicus with 2 samples.

Results

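The 6 genes described here, Nptx1, Dcx, Nes, Tubb3, Nefh and Sema7a, are grouped as neuronal cytoskeleton and neurite genes. They were picked by their symbols from a deposited table of 2325 rows, 1665 of them with a rat gene symbol, and each symbol had 1 row. The choice was made with the difference between the libraries known, so the differences below are a description and not a test. RNA sequencing compared 2 libraries of bone marrow mesenchymal stem cells (bmMSCs) from Sprague-Dawley rats, the adherent stromal cells of the marrow, at passages 3 to 5. The first library held cells collected at day 10 after both Pdx1 and Ngn3 had been transfected, transcription factors of pancreatic endocrine development. The other held cells labelled untransfected. No library is labelled as mock-transfected, so the procedure and the introduced genes cannot be told apart. The sources used here do not give the number of animals, the share of cells that took up the genes or the culture time of the control.

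Neurons hold their long processes open with microtubules and fill them with intermediate filaments. Tubb3 is the beta tubulin typical of neurons, and doublecortin, the product of Dcx, binds and stabilises microtubules in migrating and newly born neurons. Nestin is the intermediate filament of neural progenitors and is also found in subsets of marrow stromal cells, whereas Nefh gives the heavy neurofilament subunit of mature axons. Nptx1 is a secreted pentraxin that gathers glutamate receptors at synapses, and Sema7a is a membrane-anchored semaphorin that promotes axon growth through integrins.

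The libraries held 7415094 reads (transfected) and 7800831 reads (untransfected). Pdx1 had 565 reads in the transfected library and 0 in the untransfected library. The floor of 3 reads set here for a count of 0 equals 0.274 RPKM (reads scaled by the length of the cDNA and by the library total). Neurog3, the gene symbol of Ngn3, was not analysed here. The table is a selection of rows that changed at least 2-fold, and in the authors' deposited table the largest false discovery rate was 0.000996. By the rule used here (a ratio of at least 2 either way with an interval off 1), 100% of its rows were called in one direction or the other, 63.5% higher and 36.5% lower in the transfected library. With 1 library per condition there was no spread between cultures and no test. Intervals are exact 95% intervals that cover counting error only, since without molecular identifiers several reads can stem from 1 molecule. In these bulk libraries, more RNA per cell and more cells with the RNA cannot be told apart.

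Of the 6 genes, 5 were higher and 1 was lower in the transfected library, against 63.5% and 36.5% of all rows, and nothing is read from this share because the genes were picked on this difference. The 5 higher genes together had 3091 reads in the transfected library, against 318 in the untransfected library. Nptx1 gave 45.4% of the reads of the 6 genes in the transfected library, against 0.583% in the untransfected library. Sema7a gave 1.15% of them in the transfected library, against 69.1% in the untransfected library. These shares of reads also depend on the length of each cDNA. Per length, Tubb3 gave 53.2% of the summed RPKM of the 6 genes in the transfected library, against 27.1% in the untransfected library.

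**Figure D1:**
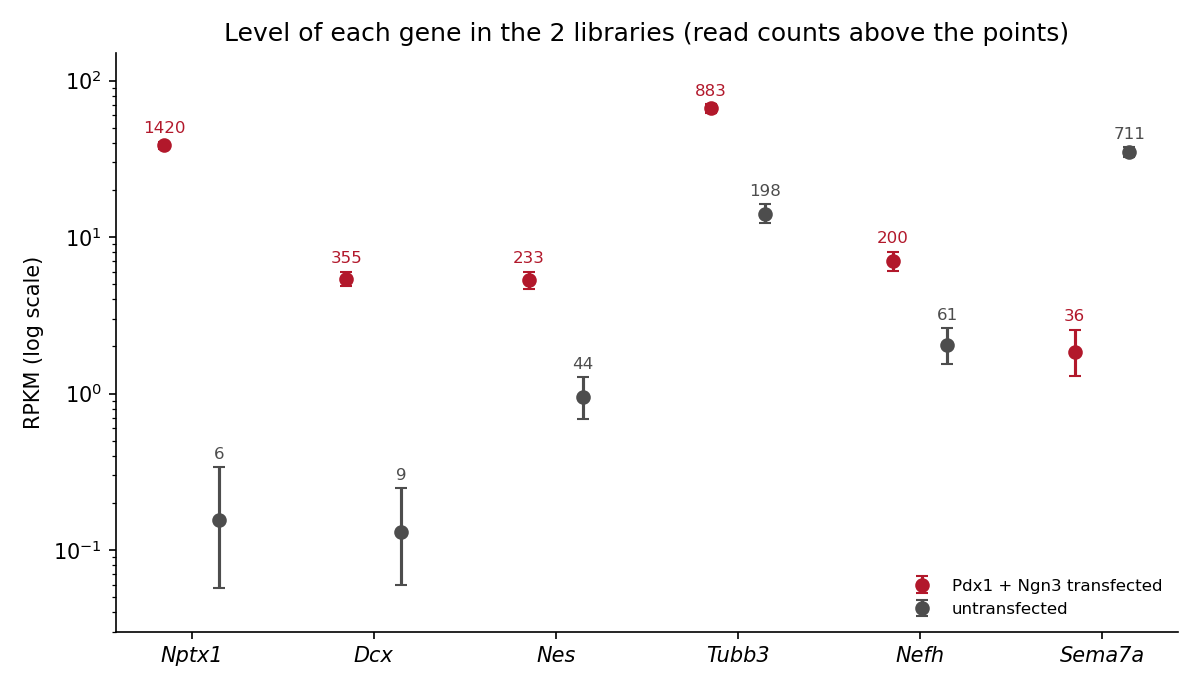
Level of each gene in RPKM on a log axis, transfected left of untransfected, with exact 95% Poisson intervals and the read count above each point. In every pair the intervals are apart, and Sema7a is the gene with the lower transfected level (1.85 against 34.8 RPKM).

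Of the microtubule genes, Tubb3 had the highest level of the 6 genes in the transfected library. It had 883 reads in transfected cells, or 66.3 RPKM (interval 62.0 to 70.8), against 198 reads in untransfected cells, or 14.1 RPKM (12.2 to 16.2). Its ratio was 4.69 (interval 4.02 to 5.50), and untransfected cells thus also expressed this tubulin at an easily detected level. Dcx had 355 reads in transfected cells, or 5.42 RPKM (4.87 to 6.02), against 9 reads in untransfected cells, or 0.131 RPKM (0.0598 to 0.248). Its ratio of 41.5 (21.6 to 91.5) was far above that of Tubb3, but its transfected level stayed well below. Per length, Tubb3 stood 12.2 times above Dcx in transfected cells and 108 times above it in untransfected cells. Beta tubulins are nearly identical in their coding parts, and how reads matching several genes were assigned is unknown here, so the Tubb3 counts are uncertain to that extent.

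Both filament genes were higher in transfected cells and stayed below 10 RPKM. Nes had 233 reads, or 5.28 RPKM (4.63 to 6.01), in transfected cells, against 44 reads, or 0.949 RPKM (0.689 to 1.27), in untransfected cells, a ratio of 5.57 (4.02 to 7.87). Nefh had 200 reads, or 7.02 RPKM (6.08 to 8.06), in transfected cells, against 61 reads, or 2.03 RPKM (1.56 to 2.61), in untransfected cells. The Nefh ratio of 3.45 (2.58 to 4.67) was the smallest of the 5 higher genes. Nefh is a subunit that assembles with lighter partners, and neither Nefl nor Nefm was analysed here.

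The secreted Nptx1 was higher in transfected cells and the membrane-bound Sema7a was lower. Nptx1 had 1420 reads in transfected cells, or 38.7 RPKM (36.7 to 40.8), against 6 reads in untransfected cells, or 0.155 RPKM (0.0570 to 0.338). Its ratio of 249 (114 to 679.6) was the fifth highest of the table with counts of 0 set to 3 reads, with a wide interval because the untransfected count is small. Sema7a had 36 reads in transfected cells, or 1.85 RPKM (1.30 to 2.56), against 711 reads in untransfected cells, or 34.8 RPKM (32.3 to 37.4). It was 18.8-fold lower (13.4 to 27.0) and took place 30 among the 849 lower rows. Among the 1476 higher rows, ranked in the same way, Dcx took place 51, Nes 427, Tubb3 532 and Nefh 729.

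**Figure D2:**
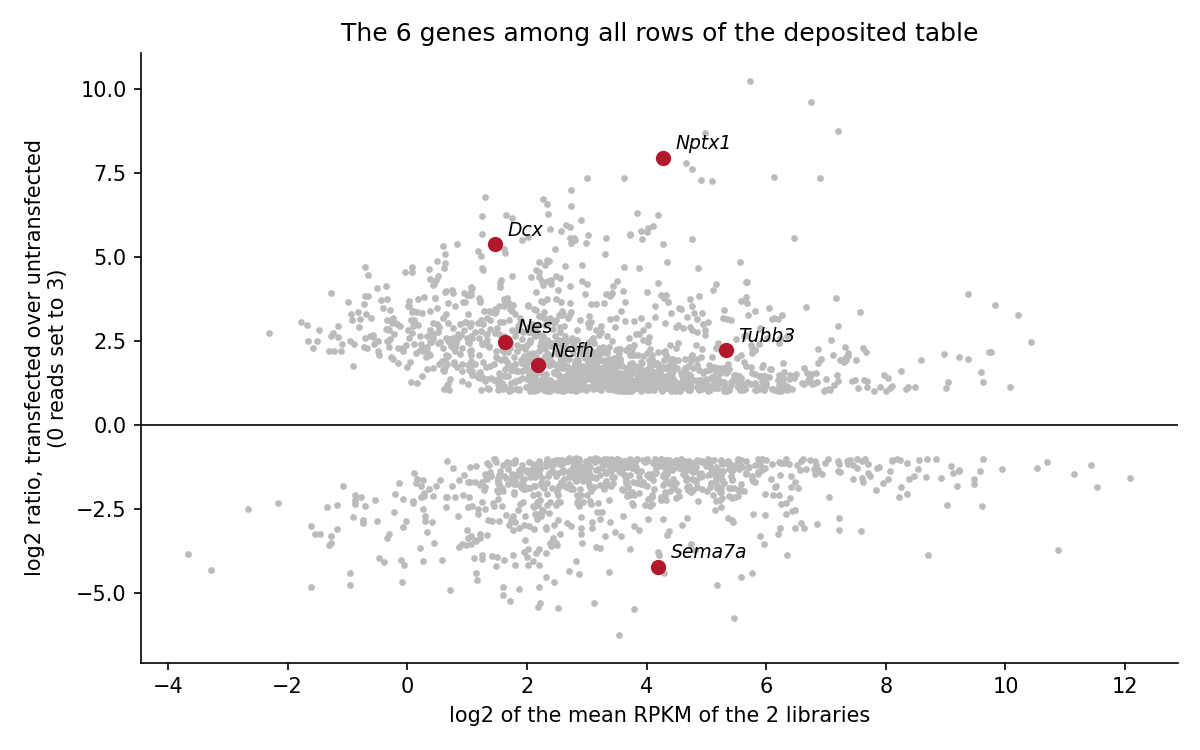
Log2 ratio of transfected over untransfected against the log2 of the mean RPKM for every row of the table (grey), with the 6 genes in red and 0 reads set to 3. Rows within 2-fold of no change are missing because the table was selected for change, and Nptx1 (log2 ratio 7.96) and Sema7a (-4.23) lie near the upper and lower edges at their level.

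By ratio the order was Nptx1, Dcx, Nes, Tubb3, Nefh and Sema7a. The intervals of Nes and Tubb3 overlapped, as did those of Tubb3 and Nefh, and the other neighbours were apart. By level in transfected cells the order was Tubb3, Nptx1, Nefh, Dcx, Nes and Sema7a, with overlap between Dcx and Nes only. By level in untransfected cells it was Sema7a, Tubb3, Nefh, Nes, Nptx1 and Dcx, with overlap between Nptx1 and Dcx only. Sema7a thus stood first among the 6 in untransfected cells and last in transfected cells.

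The cDNAs behind these counts differ in how much of them is coding. The Dcx cDNA has 8827 bases, of which 12.4% are coding and 7663 follow the coding part. The Nptx1 cDNA has 4949 bases and is 26.2% coding. The share is 75.3% for Tubb3, 76.3% for Sema7a, 83.1% for Nefh and 91.1% for Nes. Most of the length over which Dcx and Nptx1 reads were counted and scaled is therefore outside the coding part. The table does not say where along the cDNA the reads fell.

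RefSeq promoter sequences of the GRCr8 assembly were matched by gene ID for 4 of the 6 genes, Dcx, Nes, Tubb3 and Sema7a. They are shown because 3 of these genes were higher together and the other was lower, and because the introduced proteins belong to DNA-binding families with short core motifs. The 250 bases before the annotated start were searched on both strands for CANNTG, the E-box core of basic helix-loop-helix proteins such as Ngn3, and for TAAT, the core of homeodomain proteins such as Pdx1. Capitals mark these letters, and each sequence runs 5′ to 3′ towards the start of the gene. The regions are chrX:112304162-112304411 on the minus strand for Dcx and, on the plus strand, chr2:175736338-175736587 for Nes, chr19:68365437-68365686 for Tubb3 and chr8:67244068-67244317 for Sema7a.
Dcx: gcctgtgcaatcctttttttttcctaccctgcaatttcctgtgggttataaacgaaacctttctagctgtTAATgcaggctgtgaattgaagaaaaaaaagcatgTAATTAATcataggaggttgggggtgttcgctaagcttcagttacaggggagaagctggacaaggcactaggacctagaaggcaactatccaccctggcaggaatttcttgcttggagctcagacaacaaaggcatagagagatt
Nes: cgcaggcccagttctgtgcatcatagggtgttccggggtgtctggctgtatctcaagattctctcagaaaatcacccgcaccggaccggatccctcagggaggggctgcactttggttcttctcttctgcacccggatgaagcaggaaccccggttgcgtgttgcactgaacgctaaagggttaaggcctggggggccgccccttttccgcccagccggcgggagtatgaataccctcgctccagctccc
Tubb3: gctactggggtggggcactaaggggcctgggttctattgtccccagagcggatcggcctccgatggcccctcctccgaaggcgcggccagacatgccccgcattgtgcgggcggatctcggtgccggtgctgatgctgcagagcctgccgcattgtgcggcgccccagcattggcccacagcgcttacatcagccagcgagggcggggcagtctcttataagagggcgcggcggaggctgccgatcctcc
Sema7a: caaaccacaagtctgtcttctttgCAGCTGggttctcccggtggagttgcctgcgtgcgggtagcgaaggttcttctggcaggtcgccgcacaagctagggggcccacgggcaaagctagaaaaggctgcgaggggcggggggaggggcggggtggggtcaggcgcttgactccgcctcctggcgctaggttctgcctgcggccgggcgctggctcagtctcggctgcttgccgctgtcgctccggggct
The Dcx sequence held 4 matches to TAAT, starting 180, 145, 143 and 141 bases before the start. The last 3 overlap and include 1 on the opposite strand. Sema7a held 1 match to CANNTG at 226 bases before the start, and Nes and Tubb3 held none of these letters. CAGATG, an E-box form within CANNTG, was in none of the 4 windows. Of 33469 rat promoters of the same length, 65.5% held CANNTG, 57.0% held TAAT and 14.0% held CAGATG. Among the 1472 promoters of genes in the deposited table the shares were 58.6%, 38.3% and 10.5%. The Dcx window is 44% G and C, against 60.4% for Nes, 67.6% for Sema7a and 68% for Tubb3. A match is only a description of letters, and the data hold no measurement of binding.

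The direction of the 6 genes held under each scaling of the libraries. Scaling by the sums of the deposited columns shifted every log2 ratio by 0.10, TMM (trimmed mean of M-values) by -0.78 and the median of ratios by -1.20. The last 2 assume that most rows did not change, which a table selected for change does not meet. Because listed rows have an absolute log2 ratio of at least 1.00, only the shift of -1.20 could turn a row. The held direction is thus largely fixed by the selection. Under the median of ratios, Tubb3 was at 2.04 and Nefh at 1.50 times its untransfected level, and Sema7a was 43.2-fold lower.

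**Figure D3:**
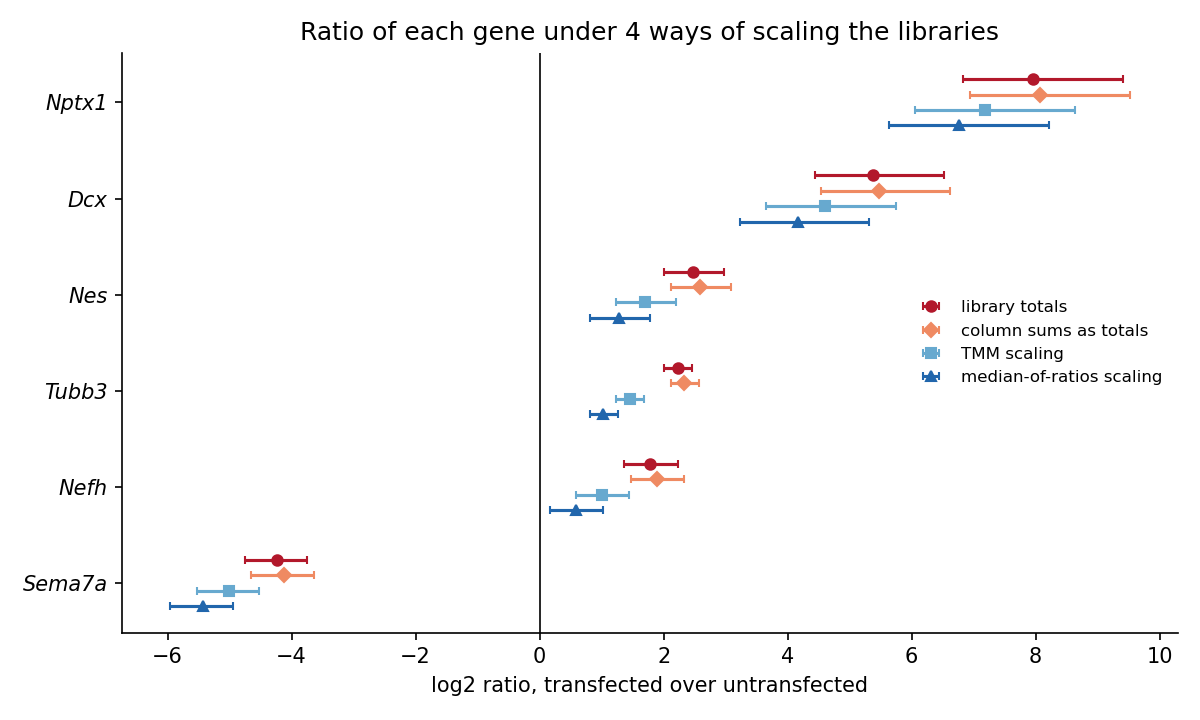
Log2 ratio of each gene, transfected over untransfected, with exact 95% counting intervals under 4 scalings. No interval crosses 0, and Nefh comes closest to it, with a ratio of 1.50 under the median of ratios.

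Relatives of the 6 genes were taken from 9 lists of neural genes. Of 298 genes in these lists, 58 were in the table, 40 higher and 18 lower, which is 69.0% higher against 63.5% of all rows. Without the 6 genes the split was 35 and 17 (67.3% higher), so at 2-fold with library totals the share was near that of the table. The median log2 ratio of these 52 genes was 1.63, against 1.24 over all rows. Under the median of ratios 19 of them were at least 2-fold higher and 17 lower (52.8% of calls higher), against 37.6% of calls over all rows, where 22% of rows were called higher (31.6% under TMM). Rows within 2-fold of no change are not listed, so these scalings could only remove higher calls and could not add lower ones. At a 3-fold limit 27 of the 52 genes were higher and 6 lower (81.8% of calls higher), against 65.8% of calls over all rows. Of all rows, 36.8% were called higher and 19.1% lower at that limit. The lists were chosen with earlier results of these data known, so these shares are a description and not independent of the data.

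Microtubule genes had 11 of 51 listed, 8 higher and 3 lower, with a median log2 ratio of 1.65. That is 72.7% higher, against 63.5% of all rows, and the 8 include Tubb3 and Dcx, which were picked for their difference. Dpysl2, which carries tubulin to growing axon tips, was at 141 RPKM in transfected and 22.7 RPKM in untransfected cells (6.22-fold, interval 5.76 to 6.72). Tubb2b, another beta tubulin of developing neurons, was 3.14-fold higher (2.39 to 4.17) and the kinesin motor Kif21b 2.94-fold higher (2.49 to 3.47). The alpha tubulins went the other way. Tuba1a was at 25.9 RPKM in transfected and 61.4 RPKM in untransfected cells (2.37-fold lower), and Tuba1c was 3.09-fold lower. Kif5c, a kinesin heavy chain of neurons, was 2.18-fold lower. Tubb3 made up 55.4% of the summed RPKM of the 4 listed alpha and beta tubulins in transfected cells, against 12.4% in untransfected cells, while the sum itself was 120 against 114 RPKM. Other alpha and beta tubulins were not analysed here, so these are not shares of all tubulin.

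Intermediate filament genes had 3 of 20 listed. Besides Nes and Nefh this was Synm, synemin, a large filament protein that joins with vimentin and desmin, which had 4 reads in transfected and 34 in untransfected cells (8.08-fold lower, interval 2.88 to 31.3). The 2 filament genes higher and the 1 lower were all below 10 RPKM in both libraries.

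Pentraxins and synapse organisers had 5 of 40 listed, and all 5 were higher, where 63.5% of all rows were. Their median log2 ratio was 3.40, against 1.24 over all rows. The 5 include Nptx1, which was picked for its difference. Under TMM and under the median of ratios, 4 of them were called higher. Nptxr, the membrane-bound receptor and partner of the secreted neuronal pentraxins, was at 93.0 RPKM in transfected and 28.5 RPKM in untransfected cells (3.27-fold, interval 3.05 to 3.50). It had the highest level of this group in both libraries. Ptx3, a long pentraxin of innate immunity, was at 21.7 RPKM in transfected and 2.07 RPKM in untransfected cells (10.5-fold, 7.26 to 15.8). Nptx1 was 25.2% of the summed RPKM of these 3 genes in transfected cells, against 0.506% in untransfected cells. Syn1, a synaptic vesicle protein, had 73 reads in transfected and 11 in untransfected cells (6.98-fold, 3.68 to 14.6).

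Semaphorins and their receptors were split, 5 higher and 6 lower of 11 listed from 33. That is 45.5% higher, against 63.5% of all rows, and the 6 include Sema7a, which was picked for its difference. The median log2 ratio of -1.03 is the value of Itgb1, which is also in the mesenchymal marker list, so its sign rests on 1 gene. Sema7a was the member with the largest decrease. Itgb1, the beta subunit of the integrin through which Sema7a acts, was 2.04-fold lower, and Plxnc1 and Itga1, its other receptor genes in the list, were not analysed here. Sema3c, a secreted semaphorin and the most abundant one listed, was at 60.1 RPKM in transfected and 165 RPKM in untransfected cells (2.74-fold lower), and Sema3f was 2.40-fold lower. On the higher side, Sema5a was 7.61-fold higher (6.24 to 9.36), Sema3g had 80 and 3 reads in transfected and untransfected cells (28.1-fold, 9.26 to 139), Sema6c was 2.71-fold higher and the receptor Plxna2 2.98-fold higher. The 9 listed semaphorins summed to 108 RPKM in transfected cells, against 269 RPKM in untransfected cells. Sema7a gave 1.71% of that sum in transfected cells, against 12.9% in untransfected cells.

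**Figure D4:**
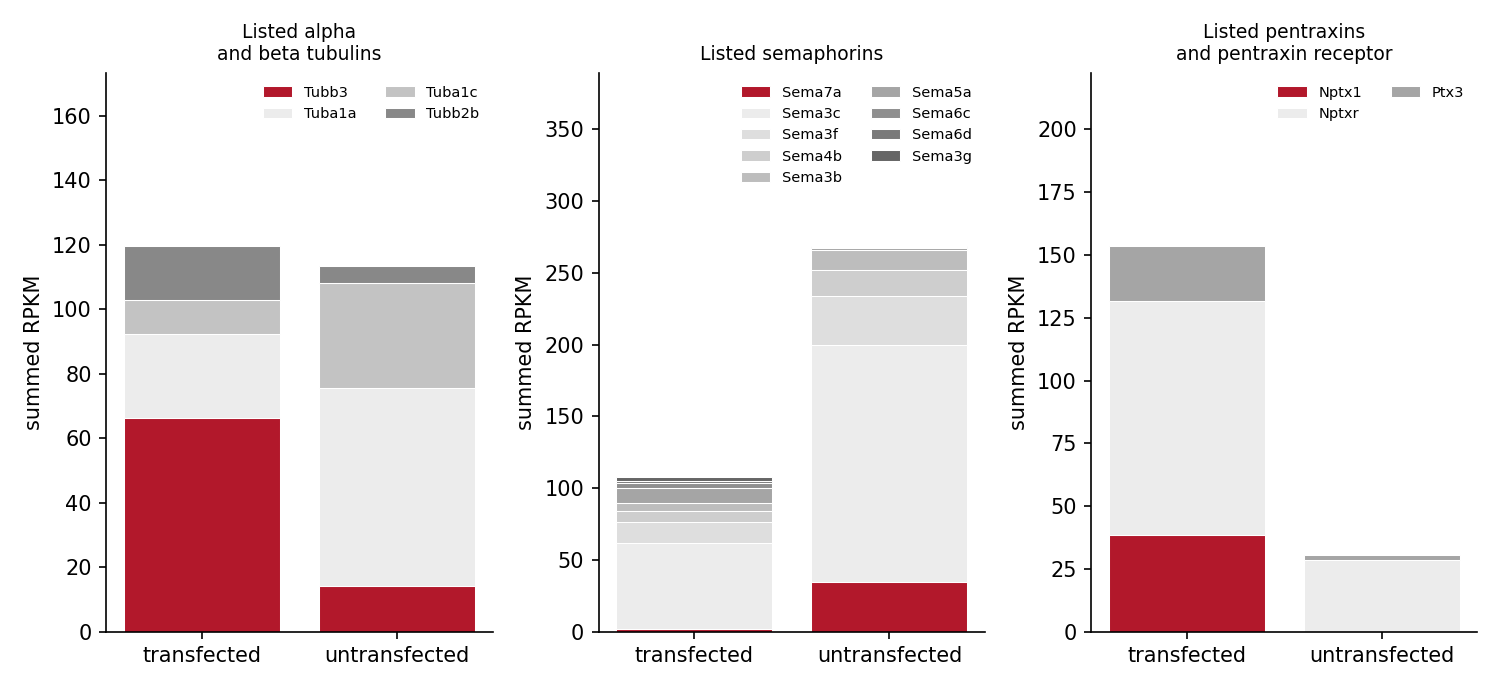
Summed RPKM of the listed members of 3 gene families, transfected left of untransfected, with the gene described here in red at the base of each bar and its relatives in grey. Tubb3 fills 55.4% of the transfected tubulin bar, against 12.4% of the untransfected bar, while Sema7a fills 1.71% of the transfected semaphorin bar, against 12.9% of the untransfected bar.

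Other axon guidance genes had 13 of 48 listed, 10 higher and 3 lower (76.9% higher, against 63.5% of all rows), with a median log2 ratio of 2.06. The netrin Ntn4 was at 247 RPKM in transfected and 68.2 RPKM in untransfected cells (3.63-fold), the adhesion protein Flrt2 was 4.25-fold higher, the Slit receptor Robo1 7.84-fold higher (6.58 to 9.40) and the netrin Ntn1 2.76-fold higher. All 3 lower genes were ephrin receptors: Epha2 (12.9-fold, 9.82 to 17.3), Ephb3 (3.39-fold) and Ephb2 (2.55-fold). Other ephrin receptors of the list, Ephb1 and Epha1, were higher and are described further below. Growth cone and neural adhesion genes were split, 6 higher and 5 lower of 11 listed from 36 (54.5% higher). L1cam, a neural adhesion molecule, was at 55.2 RPKM in transfected and 3.90 RPKM in untransfected cells (14.1-fold). Cdh2, N-cadherin, was 4.86-fold and Nav1, a neuron navigator, 3.20-fold higher, while Ank3, an ankyrin of the axon initial segment, was 2.19-fold higher but turned below 1 under the median of ratios. The lower ones included the actin regulators Enah (3.27-fold) and Vasp (2.23-fold), the growth cone protein Basp1 (2.50-fold) and the adhesion molecule Alcam (2.77-fold).

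Few regulators of neural fate were in the table. Of 14 neural progenitor genes, Nes and Prom1 were listed, and Prom1, which encodes the stem cell surface protein CD133, had 1654 reads in transfected and 11 in untransfected cells (158-fold, interval 88.2 to 317.5). Of 34 proneural and neuronal regulators, Hes6 alone was listed, at 25.3 RPKM in transfected and 8.27 RPKM in untransfected cells (3.06-fold). Its ratio was 1.33 under the median of ratios, and it was below 2-fold under TMM as well. Of 24 neurotrophic factor genes, Nrg1, neuregulin 1, was 3.39-fold higher and Gfra1, a GDNF receptor, 5.79-fold higher.

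**Figure D5:**
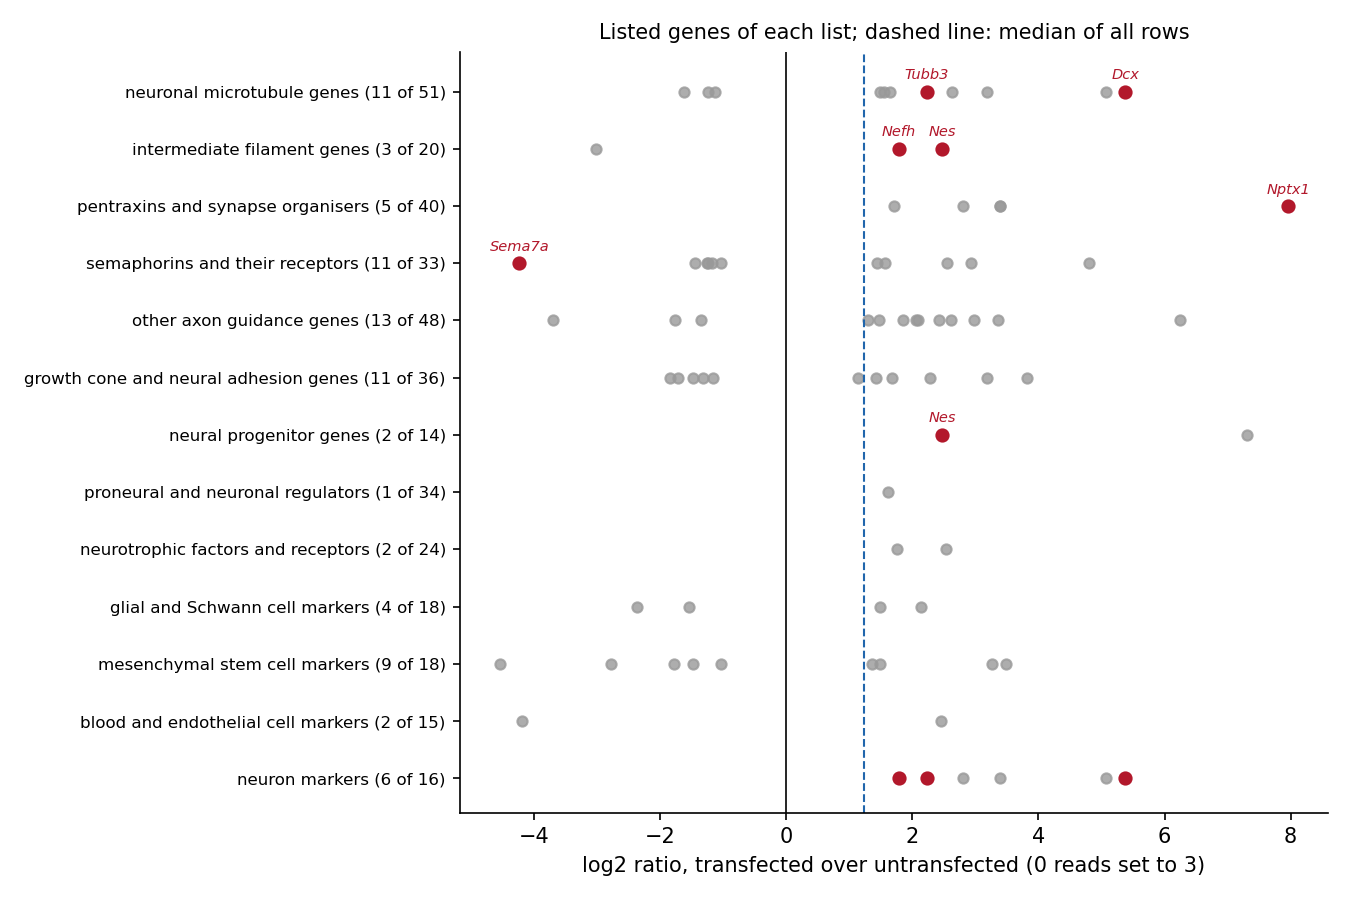
Log2 ratio, transfected over untransfected, of every listed gene in 9 neural lists and 4 marker lists, with the number listed of the number in each list, the 6 genes in red and 0 reads set to 3. The dashed line is the median of all rows (1.24). The semaphorin list is the one of the 9 neural lists whose median lies below 0 (-1.03). With 5 genes higher and 6 lower, that median is the value of the integrin gene Itgb1, and its sign rests on 1 gene.

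Markers of cell types were counted beside these values. Of 16 neuron markers 6 were listed, among them Tubb3, Dcx and Nefh, which were picked for their difference. Of the other 13 markers 3 were listed and all 3 were higher, where 63.5% of all rows were, with a summed level of 9.25 RPKM in transfected and 0.677 RPKM in untransfected cells. Besides Syn1 these were Map2, with 128 reads in transfected and 4 in untransfected cells, and Syt1, with 30 and 0 reads. Mesenchymal stem cell markers had 9 of 18 listed, 4 higher and 5 lower (44.4% higher, against 63.5% of all rows). Their levels were 3.93 to 519 RPKM in transfected and 1.13 to 1101 RPKM in untransfected cells, with sums of 1127 and 2405 RPKM. The higher ones were Kitlg (11.2-fold), Vcam1 (9.62-fold), Cxcl12 and Pdgfra, and the lower ones Cspg4 (23.3-fold), Mcam (6.85-fold), Thy1, Alcam and Itgb1. Thy1, which neurons also carry, was at 322 RPKM in transfected and 1101 RPKM in untransfected cells. Glial and Schwann cell markers had 4 of 18 listed, 2 higher and 2 lower (50% higher, against 63.5% of all rows). They summed to 66.7 RPKM in transfected and 145 RPKM in untransfected cells. Blood and endothelial markers had 2 of 15 listed, Cd68 higher and Cd74 lower (50% higher, against 63.5% of all rows). They summed to 3.34 and 9.22 RPKM in transfected and untransfected cells. None of these listed markers was at 0 except Syt1 in untransfected cells. The part of any cell mixture in the values of the 6 genes was not tested.

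Gene Ontology annotation, deposited for 1628 of the 2325 rows, gives a view that did not depend on the gene lists. The terms searched in it were chosen as well. Of the 6 genes, 3 (Dcx, Tubb3 and Nefh) carry the Gene Ontology term neuron projection, a term on 1.94% of rows (45 rows), and Dcx and Tubb3 also share microtubule cytoskeleton and cell migration. Nptx1, Nes and Sema7a carry none of the 8 neurite terms searched. Those terms were on 118 rows, 67 higher and 51 lower, with a median log2 ratio of 1.09. Thus 56.8% were higher, against 60.2% of the 1628 annotated rows (median 1.15) and 63.5% of all rows. Shares under other scalings are set against all rows, because the annotated rows were not counted under them. Under TMM the share of calls that were higher was 37.0%, against 46.4% over all rows. Rows with an axon term were split 30 and 15 (66.7% higher), rows with any term that contains neuron projection 32 and 27 (54.2%) and rows with a dendrite term 7 and 7. Under the median of ratios the splits were 9 and 15 for axon (37.5% higher), 10 and 27 for neuron projection (27.0%) and 2 and 7 for dendrite (22.2%), against 37.6% of calls over all rows. Rows within 2-fold of no change are not listed, so TMM and the median of ratios could only remove higher calls. The lower counts could not grow, and the fall in these shares follows in part from the selection. The most abundant axon rows included Vcan, versican, a matrix proteoglycan (3.80-fold higher), Mmp2, a matrix protease (2.44-fold higher), and Aqp1, a water channel (4.14-fold lower), and for neuron projection they included Itgb1 and Thy1, both lower.

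Rows with levels most like each gene were found by distance over log2(RPKM + 0.1) in the 2 libraries. Ace (angiotensin-converting enzyme, 412-fold) and Sdpr (79.1-fold) were nearest to Nptx1, Cd69 (37.9-fold) and Dll1 (33.0-fold) to Dcx, and LOC100361710 (5.40-fold) and Pcdh18 (5.38-fold) to Nes. Laptm4b (4.99-fold) and Spry1 (4.92-fold) were nearest to Tubb3, Amigo1 (3.08-fold) and Mterf (2.99-fold) to Nefh, and Rgs16 (21.4-fold lower) and Psca (13.8-fold lower) to Sema7a. This likeness rests on 2 libraries.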

How the data were processed

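RNA was taken from 1 library per condition. Per the labels' protocols, polyadenylated RNA was captured on oligo(dT) beads, fragmented, copied from random hexamers and sequenced on an Illumina GA instrument. The submitters' processing notes name build rn4. No source used here names the aligner or counter. The deposited counts are whole reads per cDNA cluster. The authors computed RPKM from them, with 0.001 written for 0 reads, and the log2 ratio from the RPKM. The deposited p-values and false discovery rates compare 2 libraries and were not tested or reported per gene, though the false discovery rate helped decide which rows are listed. The table lists rows with an absolute log2 ratio of at least 1.00.

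Library totals were recovered from counts, length and RPKM, 1 value per library in all rows except 1 of the untransfected library. Ratios are reads over these totals, with Clopper-Pearson intervals of the share of both counts, and RPKM intervals are exact Poisson. A row was called at a ratio of at least 2 either way with an interval that excludes 1. A count of 0 was set to 3 reads. Intervals and calls were checked on simulated counts. The genes and lists were chosen with earlier results of these data known. Lists were matched by symbol or gene ID. The rule named the 6 genes, up to 4 listed genes per list and direction and up to 3 per Gene Ontology term and direction by mean RPKM, and the 2 nearest rows per gene. Only the term groups described have their genes named, and these in part. Alternatives were column sums, TMM and median-of-ratios scaling, a pseudocount of 1 RPKM, 0.5 added reads, 30 or more reads, a 3-fold limit, and the length in the description. Tools were Python 3.11.15, scipy 1.17.1, pandas 2.3.3, R 4.3.3 and edgeR 4.0.16, the last for TMM only.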

Additional observations from a re-analysis of the deposited data

How the results depend on the processing

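All 6 genes kept their direction under every scaling and pseudocount run, but most of this was fixed in advance. Adding 1 RPKM to both levels cannot move a ratio across 1. Listed rows have an absolute log2 ratio of at least 1.00, so the shifts of column sums (0.10) and TMM (-0.78) cannot turn them. The median of ratios (-1.20) could turn only rows with a small increase. With median-of-ratios scaling the ratios were 108 for Nptx1, 18.0 for Dcx, 2.42 for Nes, 2.04 for Tubb3, 1.50 for Nefh and 0.0232 for Sema7a. With TMM they were 3.25 for Nes, 2.74 for Tubb3, 2.01 for Nefh and 0.0311 for Sema7a. With 1 RPKM added to both levels they were 34.4 for Nptx1, 5.68 for Dcx, 3.23 for Nes and 0.0797 for Sema7a, as this pseudocount by its construction shrinks ratios of low levels. Over all rows, 63.5% were called higher with library totals at 2-fold, 31.6% under TMM, 22% under the median of ratios and 36.8% at 3-fold. The share called lower was 36.5% at 2-fold and 19.1% at 3-fold, so the counts below fell along with the whole table. The 9 neural lists had 23 higher genes under the median of ratios and 32 at a 3-fold limit (40 with library totals at 2-fold). Their lower genes numbered 7 at 3-fold and 18 at 2-fold. The 118 rows with a neurite term had 30 higher rows under TMM, 22 under the median of ratios and 37 at 3-fold (67 with library totals at 2-fold), and 30 lower rows at 3-fold (51 at 2-fold). The text match of axon also takes in axoneme, a cilium term, and without it, a choice made after seeing the data, 66 rows were higher and 50 lower. Among 114 further counts of single lists and terms that the selection of the table does not fix, 45 moved by over 1.5 times, 12 of them under TMM, 15 under the median of ratios, 17 at 3-fold and 1 with column sums. No paired analysis was possible because each condition has 1 library, and for the same reason no replicate could be left out. Depth limits the ratios of Nptx1 and Dcx, which rest on 6 and 9 untransfected reads.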

Other observations

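Relatives of the 6 genes were also found by the words of their name or deposited best protein match, a search made after the values were seen. Doublecortin occurs in 4 rows. Besides Dcx these were Dclk1, a doublecortin-like kinase with 318 reads in transfected and 119 in untransfected cells (2.81-fold higher, interval 2.27 to 3.50), and Dclk3, a kinase of the same family with 38 reads in transfected and 0 in untransfected cells. With 3 reads in place of 0 in the untransfected library, the Dclk3 ratio was 13.3 (exact lower limit 10.3 from the counts as they are). Dcdc2, a doublecortin-domain protein, had 17 reads in transfected and 74 in untransfected cells (4.14-fold lower, interval 2.42 to 7.48). Tubulin occurs in 6 rows, and those not yet described were LOC100363487, whose best match is a tubulin delta chain (57 reads in transfected and 23 in untransfected cells, 2.61-fold higher, interval 1.58 to 4.43), and Ttll13, a tubulin ligase-like gene (48 and 16 reads, 3.16-fold higher, interval 1.76 to 5.95). A row without a gene symbol, whose best protein match is a semaphorin-6A precursor, had 33 reads in transfected and 3 in untransfected cells (11.6-fold higher, interval 3.63 to 59.0).

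The ephrin receptors Ephb1 and Epha1 are named after their values were seen. Ephb1 had 216 reads in transfected and 0 in untransfected cells. With 3 reads in place of 0, its ratio was 75.7 (exact lower limit 61.1 from the counts as they are). Epha1 had 49 reads in transfected and 5 in untransfected cells (10.3-fold higher, interval 4.13 to 33.2). The ephrin receptors Epha2, Ephb2 and Ephb3 were lower.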
